A study of Mus musculus with 6 samples.

Results

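AP-1 transcription factors were followed in mouse acute myeloid leukemia (AML) cells with and without deletion of *Phf6*, an X-linked gene for a chromatin-associated PHD finger protein. The 10 genes were taken by name from a table of 54532 genes: the FOS family (*Fos*, *Fosb*, *Fosl1*, *Fosl2*), the JUN family (*Jun*, *Junb*, *Jund*), *Batf*, *Batf3* and *Jdp2*. All 10 were found. Of these, 9 were among the 14169 genes with enough reads to be tested, and *Batf3* was not. The 6 RNA-sequencing libraries came from GFP+ leukemia cells sorted from mouse bone marrow, with replicates 1, 2 and 3 of the *WT Phf6,RE9a* group and replicates 11, 12 and 13 of the *VC Phf6,RE9a* group. *WT Phf6,RE9a* cells had the genotype *Phf6 fl/y*, with the floxed allele intact, and *VC Phf6,RE9a* cells the genotype *Vav1-Cre;Phf6 fl/y*, in which the *Vav1* promoter drives Cre in blood cells. Both groups carried RUNX1-ETO9a (RE9a), a truncated RUNX1-ETO fusion oncoprotein, which was delivered with GFP by a retrovirus into fetal liver cells that were then passed through male recipients. The labels do not give the passage, the age of the mice or whether the libraries of a group came from different leukemias, so the p-values measure only the spread between libraries. Total counts ran from 15675358 to 16817994 per library.

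AP-1 is a dimer of basic leucine zipper (bZIP) proteins. JUN proteins pair with each other or with FOS proteins, whereas FOS proteins need a JUN partner to bind DNA. BATF proteins and JDP2 also pair with JUN and have no transactivation domain of the FOS kind, so that JDP2 and BATF can hold AP-1 sites in a repressive or a lineage-specific form. Several members are immediate-early genes: growth factors, cytokines and stress switch them on within minutes through MAP kinases, serum response factor (SRF) and CREB, and their mRNAs are short-lived. In blood cells AP-1 takes part in myeloid differentiation, mast cell activation and inflammatory gene expression, and JUN is often abundant in AML.

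The promoters of the 4 members with the highest levels per length are shown because they hold the letters of elements known from inducible promoters. Each is the 130 bases before the RefSeq start, from 5′ to 3′ on the gene's strand of GRCm38.p6. Capitals mark TGACG (the core of the cAMP response element), TGACATCA (the variant AP-1 site known from the *Jun* promoter) and TATAAA.
*Fos*, chr12:85473760-85473889, plus strand: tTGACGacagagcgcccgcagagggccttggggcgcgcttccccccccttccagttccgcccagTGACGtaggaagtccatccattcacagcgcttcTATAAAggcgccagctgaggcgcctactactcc
*Fosb*, chr7:19310046-19310175, minus strand: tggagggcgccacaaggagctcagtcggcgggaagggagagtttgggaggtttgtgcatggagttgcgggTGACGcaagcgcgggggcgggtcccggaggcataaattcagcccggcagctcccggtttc
*Jun*, chr4:95052223-95052352, minus strand: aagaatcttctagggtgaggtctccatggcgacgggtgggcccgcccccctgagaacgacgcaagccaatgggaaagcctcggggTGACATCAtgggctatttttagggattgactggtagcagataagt
*Junb*, chr8:84978749-84978878, minus strand: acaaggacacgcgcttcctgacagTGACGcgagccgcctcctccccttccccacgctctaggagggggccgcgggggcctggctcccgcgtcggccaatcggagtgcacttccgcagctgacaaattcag
RefSeq windows of 300 bases around the start were at hand for 9 of the 10 members, not for *Fosl1*. The *Jund* window lies upstream of the gene span used here and does not reach it. Its 130 bases before the RefSeq start are chr8:70697609-70697738, whereas the span begins at 70698949. The searches thus do not describe the bases next to the *Jund* span. TGACG, searched on both strands, stood in a window of 5 members (*Fos*, *Fosb*, *Junb*, *Batf* and *Jdp2*), and in 20.8% of all 32851 windows. TGACATCA stood in the window of *Jun* alone among the members, 45 to 38 bases before the start, and in 3.62% of all windows. TATAAA stood in the windows of *Fos* and *Junb*, in the latter just past the printed bases, and in 13.6% of all windows. The AP-1 site TGANTCA (7.81% of all windows), the full cAMP response element TGACGTCA (1.79%), which contains TGACG, and the CArG box bound by SRF (1.63%) were not in the windows of the members. Bases outside these 300 were not searched, so a site further upstream, such as a CArG box, would have been missed. TGTGGT, the letters that RUNX proteins read, stood in the window of *Batf* on both strands and in 16.8% of all windows. TGACG and TATAAA were added to the search after the sequences had been seen.

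*Phf6* itself was lower in the deleted group. It was read 1044, 827 and 1142 times in *WT Phf6,RE9a* libraries against 388, 314 and 331 times in *VC Phf6,RE9a* libraries, and each library of the deleted group lay under every control library. By the quasi-likelihood test of edgeR, the log2 fold change was -1.66, with a standard error of 0.13 and an adjusted p of 9.32e-05.

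Of the 9 tested AP-1 genes, 6 changed in *VC Phf6,RE9a* cells, where 44.2% of all genes tested changed. *Fos*, *Fosb*, *Fosl2*, *Junb* and *Batf* fell, from 2.52-fold for *Junb* to 8.66-fold for *Fosl2*. *Jdp2* rose. *Fosl1*, *Jun* and *Jund* did not pass the threshold, an adjusted p under 0.05 over all genes tested. The 5 genes that fell make up 55.6% of the 9 tested, where 22.7% of all genes tested fell, and the 1 that rose makes up 11.1%, where 21.5% of all genes rose. *Jdp2*, with at least 10 counts in 1 of 3 control libraries, entered the test through the deleted group, in which it was higher, and *Batf* had fewer than 10 counts in 1 of 3 deleted libraries. With at least 10 counts in every library 4 members were lower and 0 higher. All 6 changed by at least 2-fold, as 11.5% of all genes tested did downward and 9.95% upward. The libraries of the groups did not overlap for the same 6 genes, whereas 57.3% of all genes tested did not overlap, 28.4% with the deleted group below and 28.9% with it above. The median log2 fold change was -1.33 over the 9 genes and 0.01 over all genes tested. In bulk RNA, fewer cells of a type and less RNA per cell cannot be told apart.

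**Figure D1:**
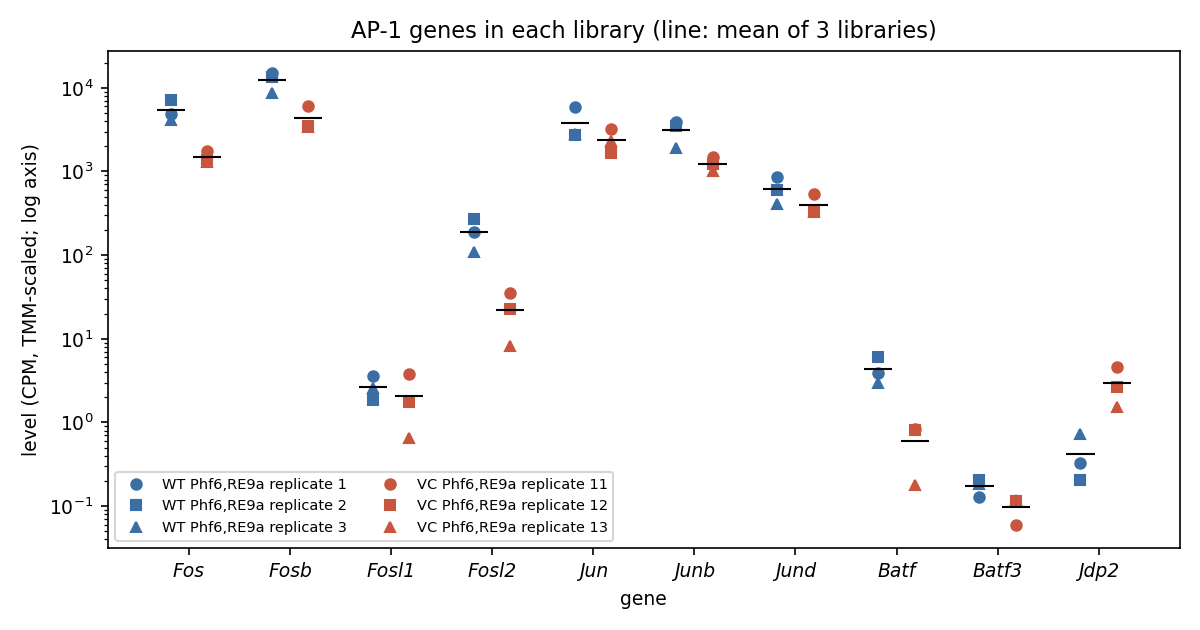
Level of each AP-1 gene in each library, in CPM (counts scaled to library size) after TMM scaling, on a log axis. Blue marks are the 3 *WT Phf6,RE9a* libraries, red marks the 3 *VC Phf6,RE9a* libraries and black lines the group means. The red marks lie under all blue marks for *Fos*, *Fosb*, *Fosl2*, *Junb*, *Batf* and *Batf3* and above them for *Jdp2*. *Batf3* had at most 3 counts in a library and was not tested. Libraries of both groups had 2 counts of it, so its marks part only through the scaling. For *Fosl1*, *Jun* and *Jund* the ranges of the groups overlap.

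*Fos* (ENSMUSG00000021250, 4 exons, chr12:85473890-85477273) encodes c-Fos, the founding member of the family. It had 75440, 105440 and 68233 counts in *WT Phf6,RE9a* libraries against 29647, 23686 and 21830 counts in *VC Phf6,RE9a* libraries. The groups did not overlap, and replicate 2 of the controls was the highest. The mean fell from 5394 ± 1572 CPM to 1476 ± 241 CPM (SD over 3 libraries), 3.65-fold lower (log2 fold change -1.87, standard error 0.23, adjusted p = 0.000614). *Fos* mRNA is a textbook case of a short-lived message with AU-rich elements in its 3′ UTR. The 815 bases of its 3′ UTR hold ATTTA 4 times, or 4.91 per kb, above the 90th percentile (4.03) of 11150 tested coding genes. They also hold the nonamer TTATTTATT, in capitals with 10 bases on each side, at chr12:85477103-85477131: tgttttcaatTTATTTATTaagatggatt. The nonamer stood in 8.17% of these genes. For ATTTA, *Junb* (4.12 per kb) was also above the 90th percentile, whereas *Jun* (3.24), *Jund* (1.88) and *Fosl1* (1.57) were not.

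*Fosb* (ENSMUSG00000003545, chr7:19302696-19310051) encodes FosB, which can replace c-Fos in the dimer. It had 229601, 200133 and 144995 counts in *WT Phf6,RE9a* libraries against 102084, 60371 and 56852 counts in *VC Phf6,RE9a* libraries. In all 3 control libraries no gene of the table had more counts, and *Fosb* alone took 1.37%, 1.28% and 0.869% of all counts there. In the deleted group it ranked 3, 3 and 5 by counts, with 0.626%, 0.375% and 0.354%. The level went from 12419.6 ± 3225 to 4307 ± 1491 CPM, 2.88-fold lower (log2 fold change -1.53, standard error 0.29, adjusted p = 0.00447), with no overlap between the groups. GENCODE lists 6 coding transcripts of 3 to 5 exons for *Fosb*. Counts per gene do not separate them, so full-length FosB and the short ΔFosB, which lacks the transactivating C-terminus, cannot be told apart. Its 3′ UTR of 2302 bases holds ATTTA 1 time.

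*Fosl2* (ENSMUSG00000029135, 4 exons, chr5:32135801-32157842) encodes Fra-2, a FOS protein without the strong transactivation domain of c-Fos. It had 2929, 4011 and 1784 counts in *WT Phf6,RE9a* libraries against 594, 386 and 138 counts in *VC Phf6,RE9a* libraries. Every library of the deleted group was lower, and replicate 13 was the lowest of all. The level went from 190.1 ± 82.1 to 21.9 ± 13.4 CPM, 8.66-fold lower (log2 fold change -3.12, standard error 0.52, adjusted p = 0.00258). The 3′ UTR of *Fosl2* runs over 4653 bases, holds ATTTA 8 times (1.72 per kb, against a median of 1.33 over the tested coding genes), and carries the nonamer at chr5:32156871-32156899: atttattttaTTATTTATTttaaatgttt.

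*Fosl1* (ENSMUSG00000024912, chr19:5447703-5455945) encodes Fra-1, a FOS protein that AP-1 itself induces. It was read 55, 27 and 43 times in *WT Phf6,RE9a* libraries against 64, 30 and 11 times in *VC Phf6,RE9a* libraries. The groups overlapped, and the highest and the lowest of the 6 libraries both belonged to the deleted group. The log2 fold change was -0.37 (95% interval -1.71 to 0.96, adjusted p = 0.633), an interval that holds both a fall and a rise. Without *VC Phf6,RE9a* replicate 13 it was 0.05 (adjusted p = 0.949). *Fosl1* overlaps *Ccdc85b* on the other strand over 2767 bases. The strandedness of the counting is not given in the sources used here, so reads of the shared part cannot be assigned to either gene. *Ccdc85b* had 212, 158 and 168 counts in *WT Phf6,RE9a* libraries against 164, 193 and 195 in *VC Phf6,RE9a* libraries.

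**Figure D2:**
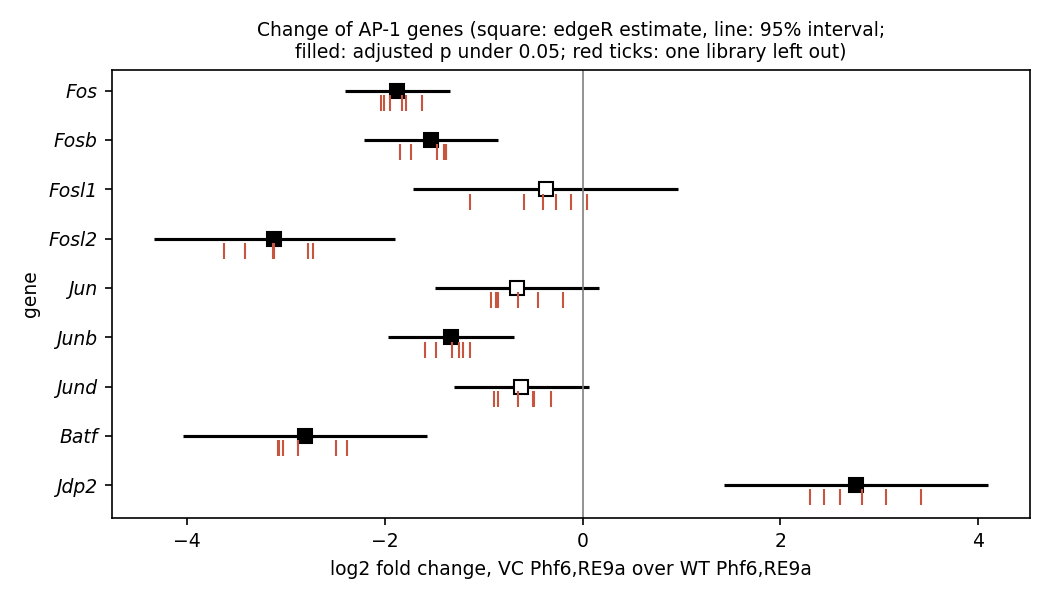
Change of the 9 tested AP-1 genes as the log2 fold change from *WT Phf6,RE9a* to *VC Phf6,RE9a*, with its 95% interval (line). Filled squares passed an adjusted p under 0.05, open squares did not, and red ticks give the value with each library left out in turn. The intervals of *Fosl1*, *Jun* and *Jund* cross 0, and the ticks of the other 6 genes all lie on the side of their square.

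*Jun* (ENSMUSG00000052684, chr4:95049034-95052222) is a gene of a single exon for c-Jun, the partner that c-Fos binds best. It had 91541, 39746 and 46051 counts in *WT Phf6,RE9a* libraries against 54358, 28347 and 39476 counts in *VC Phf6,RE9a* libraries. The groups overlapped, since replicate 11 of the deleted group had more than 2 of the 3 controls. The level was 3809 ± 1849 and 2402 ± 780 CPM, with a log2 fold change of -0.67 (95% interval -1.49 to 0.16, adjusted p = 0.169). *WT Phf6,RE9a* replicate 1 stood high, and without it the log2 fold change was -0.20 (adjusted p = 0.588). *Jun* shares 689 bases with the antisense RNA *Junos*, which had at most 27 counts in a library.

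*Junb* (ENSMUSG00000052837, a single exon, chr8:84974484-84978718) encodes JunB, a JUN protein that restrains c-Jun in many settings and is known as a brake on myeloid proliferation. It had 60470, 51425 and 31484 counts in *WT Phf6,RE9a* libraries against 25091, 20824 and 16986 counts in *VC Phf6,RE9a* libraries. Again every library of the deleted group lay under every control. The level went from 3107 ± 1063 to 1235 ± 237 CPM, 2.52-fold lower (log2 fold change -1.33, standard error 0.27, adjusted p = 0.00624). *Junb* overlaps *Prdx2*, an abundant erythroid peroxiredoxin gene, on the other strand over 351 bases. *Prdx2* was read more in the deleted group, with 3499, 2344 and 4523 counts in *WT Phf6,RE9a* libraries against 10112, 10396 and 10001 in *VC Phf6,RE9a* libraries.

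*Jund* (ENSMUSG00000071076, a single exon, chr8:70698949-70700616) encodes JunD, the JUN protein that resting cells keep most steadily. It had 13140, 8755 and 6716 counts in *WT Phf6,RE9a* libraries against 9227, 5781 and 5487 counts in *VC Phf6,RE9a* libraries. The groups overlapped. The log2 fold change was -0.62 (95% interval -1.30 to 0.07, adjusted p = 0.126), and without *WT Phf6,RE9a* replicate 3 it was -0.85 and passed (adjusted p = 0.0374). *Jund* and *Jun* thus gave fold changes of like size, and both intervals reach just past 0.

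*Batf* (ENSMUSG00000034266, 3 exons, chr12:85686669-85709087) encodes a short bZIP protein that pairs with JUN and, with IRF factors, shapes lymphoid and dendritic cells. It had few reads, 60, 89 and 49 in *WT Phf6,RE9a* libraries against 14, 14 and 3 in *VC Phf6,RE9a* libraries. The groups did not overlap. The level went from 4.30 ± 1.58 to 0.607 ± 0.371 CPM, 6.99-fold lower (log2 fold change -2.80, standard error 0.53, adjusted p = 0.00431).

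*Jdp2* (ENSMUSG00000034271, chr12:85599027-85639878) encodes a repressor that binds JUN proteins and recruits histone deacetylases. It had 5, 3 and 12 counts in *WT Phf6,RE9a* libraries against 77, 46 and 26 counts in *VC Phf6,RE9a* libraries. It was the only one of the 9 tested genes that rose, and the groups did not overlap. The level went from 0.418 ± 0.274 to 2.92 ± 1.52 CPM (log2 fold change 2.76, standard error 0.58, adjusted p = 0.00652). At least 10 counts were reached in all 3 *VC Phf6,RE9a* libraries and in 1 *WT Phf6,RE9a* library for *Jdp2*, and in all 3 *WT Phf6,RE9a* and 2 *VC Phf6,RE9a* libraries for *Batf*. These 2 genes therefore entered the test largely through the group in which they were higher. On the log2(FPKM + 1) scale, which shrinks changes of low genes, the log2 fold changes were -1.48 for *Batf* and 0.94 for *Jdp2*.

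*Batf3* (ENSMUSG00000026630, chr1:191097847-191108945), a factor required for cross-presenting dendritic cells, had 2, 3 and 3 counts in *WT Phf6,RE9a* libraries against 1, 2 and 2 counts in *VC Phf6,RE9a* libraries. These counts are at or under 3 in each library. A level of 3 counts, 0.175 to 0.204 CPM over the libraries, is one that a count of 0 would still allow. *Batf3* itself lay between 0.059 and 0.204 CPM. Its counts were too few for a test and no fold change is given. The 3′ UTRs of *Batf*, *Batf3* and *Jdp2* hold no ATTTA.

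**Figure D3:**
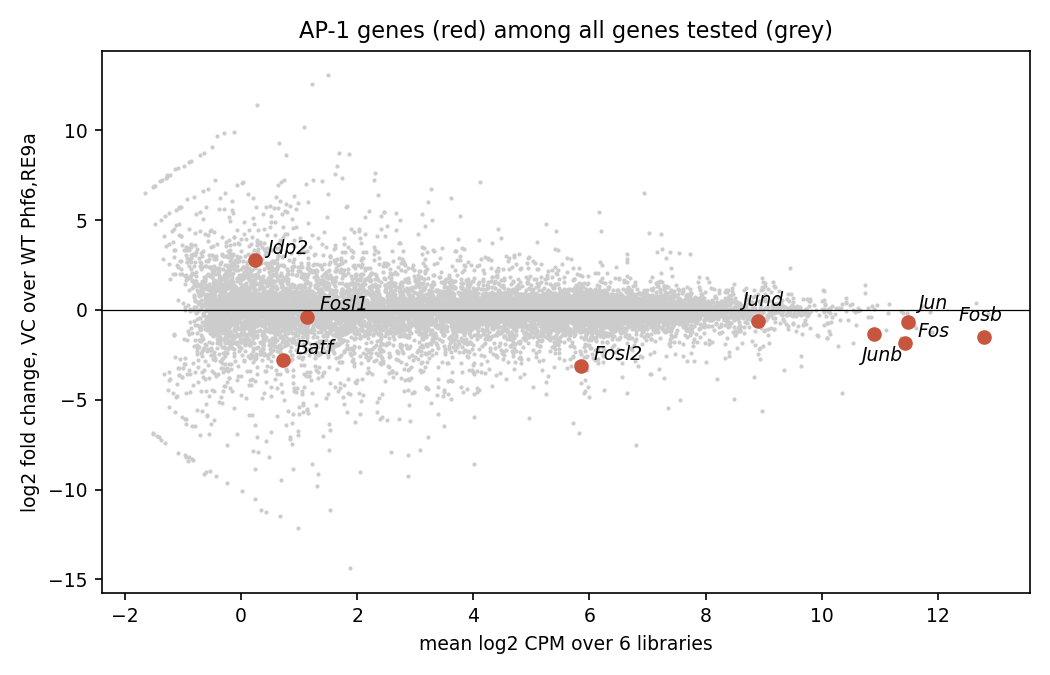
Log2 fold change from *WT Phf6,RE9a* to *VC Phf6,RE9a* against the mean log2 CPM over the 6 libraries, for all 14169 genes tested (grey) and the 9 AP-1 genes among them (red). *Fosb*, *Fos*, *Jun* and *Junb* lie at the far right, among the genes with the most reads, all under 0, whereas *Batf*, *Fosl1* and *Jdp2* lie at the left edge.

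Members were compared with each other per gene length, in the deposited FPKM. In *WT Phf6,RE9a* cells the order of levels was *Fos* (2279 ± 662 FPKM), *Fosb* (1978 ± 522), *Junb* (1343 ± 465), *Jun* (1189 ± 584), *Jund* (369 ± 136), *Fosl2* (19.5 ± 8.43), *Batf* (3.04 ± 1.11), *Fosl1* (1.55 ± 0.515), *Jdp2* (0.193 ± 0.126) and *Batf3* (0.107 ± 0.0231). Among neighbours in this order, the libraries separated *Jun* from *Jund*, *Jund* from *Fosl2*, *Fosl2* from *Batf* and *Fosl1* from *Jdp2*. The first 4 genes overlapped their neighbours, so the order of neighbours among them is not resolved. *Fos* (1737 to 3017 FPKM) did not overlap *Junb* (819 to 1706 FPKM). Within each control library *Fos* and *Fosb* were both above *Junb* and *Jun*. In *VC Phf6,RE9a* cells *Jun* stood first (743 ± 240 FPKM), before *Fosb* (681 ± 236), *Fos* (619 ± 102), *Junb* (530 ± 103), *Jund* (238 ± 73.0), *Fosl2* (2.24 ± 1.37), *Jdp2* (1.34 ± 0.698), *Fosl1* (1.19 ± 0.917), *Batf* (0.427 ± 0.262) and *Batf3* (0.0607 ± 0.0209). The ranges of the first 4 genes overlapped here, so their order is not resolved, and in replicate 12 *Jun* (514 FPKM) was the lowest of the 4. The libraries separated *Junb* from *Jund*, *Jund* from *Fosl2* and *Batf* from *Batf3*. *Jdp2* thus lay under *Batf* in mean level in the first group and over it in the second.

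The FOS genes made up less of these transcripts, relative to the JUN genes, in every library of the deleted group. The summed FPKM of the 4 FOS genes was 4491, 5203 and 3140 in *WT Phf6,RE9a* libraries against 1693, 1145 and 1074 in *VC Phf6,RE9a* libraries. That of the 3 JUN genes was 4080, 2696 and 1925 against 1951, 1238 and 1344. The FOS to JUN ratio was thus 1.10, 1.93 and 1.63 in *WT Phf6,RE9a* libraries against 0.868, 0.925 and 0.799 in *VC Phf6,RE9a* libraries, on opposite sides of 1 in all 6. The 10 genes together took 2.81%, 2.61% and 1.79% of all counts in *WT Phf6,RE9a* libraries against 1.36%, 0.867% and 0.878% in *VC Phf6,RE9a* libraries. As shares of the summed FPKM, *Fos* went from 32.2% ± 7.16 to 22.3% ± 2.14 and *Jun* from 16.5% ± 5.58 to 26.2% ± 4.24, while *Junb* made up 18.4% ± 1.95 and 19.1% ± 2.51.

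**Figure D4:**
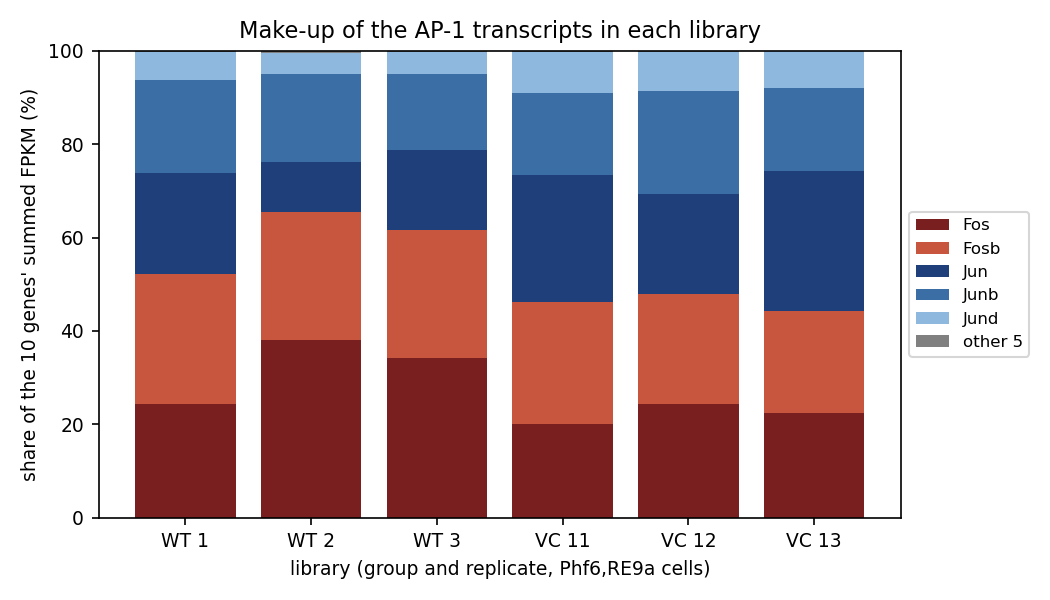
Share of each gene in the summed FPKM of the 10 AP-1 genes (%), as stacked bars, for the 3 *WT Phf6,RE9a* and the 3 *VC Phf6,RE9a* libraries. Red shades are FOS genes and blue shades JUN genes, and the 5 genes drawn in grey are too small to be seen. The *Jund* share is 4.47% to 5.96% in the control libraries and 7.93% to 8.84% in the deleted ones.

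The libraries of a group also differed among themselves. *VC Phf6,RE9a* replicate 11 was the highest library of its group for 9 of the 10 members, and replicate 13 the lowest for 8. For *Batf*, 1 of the 9, replicates 11 and 12 had 14 counts each. Among the controls, replicate 3 was the lowest for 6 members. How often a library took such a place over all genes was not counted. *Fos* was highest in *WT Phf6,RE9a* replicate 2, in which *Jun* was lowest of its group, whereas in the deleted group both were highest in replicate 11. Over the 6 libraries, the genes whose log2 CPM profile lay closest to that of *Fos* were *Ap3m2*, *Acot4* and *Elf1* (root mean square difference 0.107, 0.123 and 0.127), and closest to that of *Jun* lay *Gm15421*, *Rab23* and *Camk4* (0.0957, 0.152 and 0.168).

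MAP kinases bring growth factor and stress signals to AP-1, the JNK arm by phosphorylating c-Jun and the ERK arm by way of the ternary complex factors at the *Fos* promoter. Of 26 tested genes of these cascades, which include the JNK scaffold gene *Mapk8ip3*, 10 were lower, 3 higher and 13 did not pass, with a median log2 fold change of -0.18. The lower share, 38.5%, stands beside 22.7% over all genes, and the higher share, 11.5%, beside 21.5%. *Mapk8*, the gene for JNK1, fell from 30.1 ± 2.34 to 11.6 ± 0.955 CPM (log2 fold change -1.37, adjusted p = 0.000194). *Braf* (-1.16, adjusted p = 0.0023) and *Map2k1*, the gene for MEK1 (84.2 ± 10.7 to 42.1 ± 2.07 CPM, adjusted p = 0.000378), fell as well. The 3 that rose were *Mapk13*, the gene for p38δ (0.612 ± 0.256 to 3.80 ± 2.45 CPM, log2 fold change 2.61, adjusted p = 0.00963), *Map2k4* (0.32, adjusted p = 0.017) and *Map2k2* (0.32, adjusted p = 0.0201). *Mapk13* had 7, 7 and 15 counts in *WT Phf6,RE9a* libraries, so it entered the test largely through the group in which it was higher. *Mapk14*, the gene for p38α (-0.22, adjusted p = 0.0674), and *Rps6ka1* (-0.12, adjusted p = 0.288) did not pass. Without *VC Phf6,RE9a* replicate 11, 5 of these genes were lower and 1 higher, and without replicate 13, 1 was higher. Over all genes, the lower calls also dropped without replicate 11, from 3213 to 2511, and the higher calls from 3047 to 2179. Without replicate 13, 2404 of all genes were higher. *Map2k4* lost its call without *VC Phf6,RE9a* replicate 11 or 13, and *Map2k2* without replicate 11, 12 or 13. Their log2 fold changes were then 0.27 to 0.34.

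SRF, its partners and the coactivators CBP and p300 carry these signals to the *Fos* promoter. Of 9 tested genes of this group, 5 were lower (*Srf*, *Elk1*, *Elk4*, *Mkl2*, *Crebbp*) and 2 higher (*Mkl1*, *Ep300*), with a median log2 fold change of -0.44. These are 55.6% lower and 22.2% higher, beside 22.7% and 21.5% over all genes tested. *Mkl2* fell (-1.61, adjusted p = 0.001), whereas its paralog *Mkl1*, which like it encodes an actin-sensing SRF coactivator, rose (0.66, adjusted p = 0.00202). The coactivator genes parted in the same way: *Crebbp* fell (-0.44, adjusted p = 0.0146) and *Ep300* rose (0.36, adjusted p = 0.00944). *Elk4*, a ternary complex factor, fell (-0.52, adjusted p = 0.0312), a call that only the omission of *WT Phf6,RE9a* replicate 3 left in place. The counts changed with libraries left out: 2 genes were lower without *WT Phf6,RE9a* replicate 1 or *VC Phf6,RE9a* replicate 11 or 12, and 3 without *WT Phf6,RE9a* replicate 2 or *VC Phf6,RE9a* replicate 13. In the same fits the lower calls over all genes ran from 2511 to 3166, against 3213 with every library. The calls of *Elk1* and *Elk4* were lost in most of these at log2 fold changes of -0.51 to -0.81 and -0.35 to -0.54. *Srf* lost its call without *WT Phf6,RE9a* replicate 1 or *VC Phf6,RE9a* replicate 12 or 13 (-0.44 to -0.58). *Crebbp* lost it without *VC Phf6,RE9a* replicate 11 (-0.41, adjusted p = 0.0628).

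Other immediate-early genes moved with the AP-1 genes. Of 18 tested, 13 fell, 2 rose (*Myc* and *Dusp2*) and 3 did not pass, with a median log2 fold change of -1.46. The shares that fell and rose were 72.2% and 11.1%, beside 22.7% and 21.5% over all genes tested. *Nr4a3*, 1 of the 13, had 333, 351 and 100 counts in *WT Phf6,RE9a* libraries against 20, 8 and 1 in *VC Phf6,RE9a* libraries. It entered the test largely through the group in which it was higher. With at least 10 counts in every library 11 of these genes fell and 2 rose. The summed level was 21930.5, 21059.7 and 16219 CPM in *WT Phf6,RE9a* libraries against 11407, 7924 and 7143 CPM in *VC Phf6,RE9a* libraries. *Egr3*, a zinc finger factor gene, fell from 84.6 ± 39.1 to 3.30 ± 0.925 CPM (log2 fold change -4.68, adjusted p = 0.000146). *Nr4a2*, an orphan nuclear receptor gene (-2.82, adjusted p = 4.39e-05), and *Ier3* (-1.38, adjusted p = 0.000341) fell too. The abundant *Klf6* (-1.54, adjusted p = 0.00305), *Dusp1*, a MAP kinase phosphatase gene (-1.13, adjusted p = 0.00233), and *Egr1* (-0.84, adjusted p = 0.00731) fell as well. *Myc* rose (1.53, adjusted p = 0.00265). *Dusp2* rose (0.74, adjusted p = 0.0448), and its call, but not its direction, was lost without *WT Phf6,RE9a* replicate 2 or any *VC Phf6,RE9a* library, at log2 fold changes of 0.63 to 0.83.

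Textbook AP-1 targets split. Of 23 listed, 16 could be tested, 9 of which fell (56.2%, beside 22.7% over all genes tested) and 5 rose (31.2%, beside 21.5%), while *Mmp3* and *Il2* had no reads in the 6 libraries. *Ccnd1*, which rose, had 9, 5 and 16 counts in *WT Phf6,RE9a* libraries, and *Il6*, which fell, 20, 18 and 5 in *VC Phf6,RE9a* libraries. Both entered the test largely through the group in which they were higher. With at least 10 counts in every library 8 targets fell and 4 rose. *Vim*, the vimentin gene, fell from 2126 ± 457 to 208 ± 61.7 CPM (log2 fold change -3.35, adjusted p = 9.69e-05). *Cd69*, an early activation antigen, fell from 358 ± 53.8 to 12.3 ± 5.78 CPM (-4.86, adjusted p = 7.36e-05), and *Il6* from 29.8 ± 3.63 to 0.842 ± 0.477 CPM (-5.13, adjusted p = 7.22e-05). *Mmp9*, a matrix metalloproteinase gene (12.9 ± 8.97 to 97.2 ± 54.8 CPM, log2 fold change 2.90, adjusted p = 0.00624), and *Plaur*, the urokinase receptor gene (1.82, adjusted p = 0.00111), rose and kept their calls with each library left out. *Ezr*, the gene for ezrin, rose (0.38, adjusted p = 0.0402), a call kept only without *WT Phf6,RE9a* replicate 1. *Mt1*, a metallothionein gene, gave -0.28 (adjusted p = 0.0946). The 5 that rose became 2 or 3 whenever a library was left out, 2 of them without *VC Phf6,RE9a* replicate 11 or 13. Over all genes, 2179 to 3132 were higher in those fits, against 3047 with every library. The target genes have many other regulators, and binding of AP-1 was not measured.

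Other bZIP genes, whose products pair with JUN or FOS or compete for related sites, changed at shares near those of all genes. Of 17 tested, 5 were lower (29.4%, beside 22.7%) and 4 higher (23.5%, beside 21.5%), with a median log2 fold change of -0.19 that was 0.03 with DESeq2, 0.03 without a count filter and 0.01 without *WT Phf6,RE9a* replicate 2. *Crem*, a cAMP-responsive factor gene, fell (-1.64, adjusted p = 0.000883), as did *Nfe2l2*, the gene for NRF2 (-0.92, adjusted p = 0.000398). *Nfe2*, an erythroid and megakaryocytic factor gene, rose (1.31, adjusted p = 0.000463). *Maf*, 1 of the 4 higher genes, had 9, 6 and 7 counts in *WT Phf6,RE9a* libraries against 21, 40 and 36 in *VC Phf6,RE9a* libraries. It thus entered the test through the group in which it was higher. With at least 10 counts in every library 5 bZIP genes were lower and 3 higher. *Atf4* (0.05, adjusted p = 0.767) and *Mafk* (0.27, adjusted p = 0.228) did not pass. Without *WT Phf6,RE9a* replicate 1 or *VC Phf6,RE9a* replicate 13, 3 of the bZIP genes were lower. Over all genes, 2839 and 2613 were lower in these 2 fits, against 3213 with every library.

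**Figure D5:**
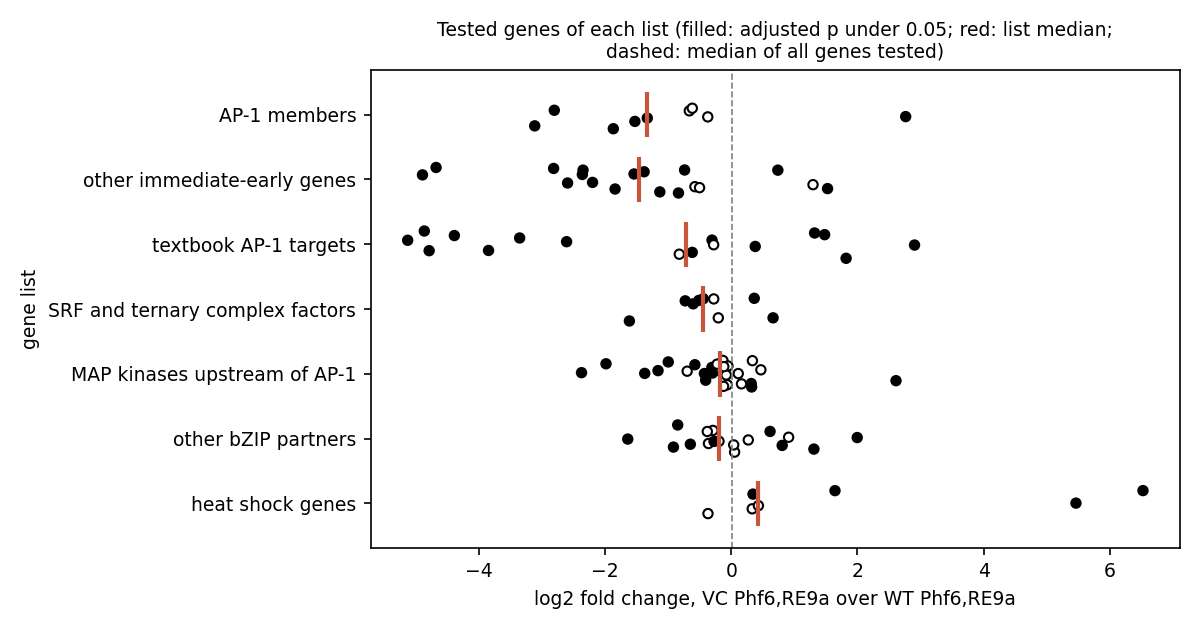
Log2 fold change from *WT Phf6,RE9a* to *VC Phf6,RE9a* for each tested gene of the AP-1 list and of 6 related lists, with points spread vertically for legibility. Filled points passed an adjusted p under 0.05, red bars are list medians and the dashed line is the median of all genes tested (0.01). The medians of the AP-1 (-1.33) and immediate-early genes (-1.46) lie far to the left and that of the heat shock genes (0.43) to the right.

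Markers of other cells moved with the groups too. Of 8 mast cell and basophil genes 7 were lower (87.5%, beside 22.7% over all genes tested), with a summed level of 20211, 22664 and 14552 CPM in *WT Phf6,RE9a* libraries against 4701, 4618 and 5081 CPM in *VC Phf6,RE9a* libraries. Over both groups together *Hdc*, the histidine decarboxylase gene, had the highest CPM of them, although the mast cell protease gene *Cpa3* stood higher in the controls (6749 ± 1507 against 5973 ± 1853 CPM), and *Ms4a2* was the 1 that did not pass. Of the 6 progenitor and leukemia genes, *Kit* fell from 2420 ± 471 to 273 ± 70.1 CPM (log2 fold change -3.15, adjusted p = 7.75e-05), *Cd34* (-4.63, adjusted p = 0.00347) and *Myb* (-0.35, adjusted p = 0.0251) fell, *Mpo* rose (1.88, adjusted p = 0.018), and *Ptprc* and *Spi1* did not pass. All 6 were read in both groups. All 8 neutrophil genes rose (100%, beside 21.5% over all genes tested), with *S100a9* at the highest CPM and a summed level of 176, 139 and 432 CPM against 3425, 2177 and 897 CPM. Among these, *Ly6g* had 6, 5 and 15 counts in *WT Phf6,RE9a* libraries against 177, 125 and 36 in *VC Phf6,RE9a* libraries. It thus entered the test largely through the group in which it was higher. All 6 erythroid genes rose too, with *Hbb-bs* at the highest CPM, and their sum went from 2038, 1331 and 1908 to 4542, 4853 and 4327 CPM. The part of these cell markers in the AP-1 result was not tested.

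The remaining marker lists were at low levels. Of 8 macrophage and monocyte genes 2 rose (25%, near the 21.5% of all genes), and the sum of the 8 was 36.0, 48.1 and 49.3 CPM in *WT Phf6,RE9a* libraries against 135, 102 and 74.7 CPM in *VC Phf6,RE9a* libraries, with *Ly6c2* at the highest CPM in the deleted group and *Cd68* in the controls. Of 6 dendritic cell genes 4 were tested and 2 rose (50%, beside 21.5%), and the 6 summed to 1.95, 2.71 and 5.27 against 46.4, 58.6 and 40.7 CPM, with *Flt3* at the highest CPM in the controls and most of the sum in the deleted group from *Zbtb46* (42.2 ± 8.31 CPM), and *Xcr1* and *Clec9a*, which define the cells that need *Batf3*, were at 0.099 ± 0.124 and 0.333 ± 0.119 CPM or less on average. The 4 tested of 5 B cell genes rose (100% of those tested), to a sum of 24.4, 24.6 and 8.50 CPM from 1.10, 0.611 and 0.908 CPM. Of 7 T cell genes only *Lck* could be tested, and it was higher, while the sums were 1.23, 1.42 and 1.82 against 9.15, 8.80 and 6.59 CPM. Of 6 stromal and endothelial genes 2 were tested and *Cxcl12* rose, with sums of 2.60, 1.63 and 3.93 against 9.03, 9.03 and 7.31 CPM and *Pecam1* at the highest CPM over both groups together. Several of these low genes, *Lck* among them (5, 8 and 16 counts in *WT Phf6,RE9a* libraries against 95, 117 and 90 in *VC Phf6,RE9a* libraries), had enough reads for a test largely through the group in which they were higher and so had to differ. Their part in the rise of *Jdp2* was not tested.

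Heat shock genes, which like the immediate-early genes respond to handling and warming of cells, were read as well. Of 7, 4 rose (57.1%, beside 21.5% over all genes tested), 0 fell and 3 did not pass, with a summed level of 3865, 3137 and 4169 CPM in *WT Phf6,RE9a* libraries against 6134, 6728 and 6068 CPM in *VC Phf6,RE9a* libraries. *Hspa1b* rose from 13.1 ± 4.82 to 1206 ± 148 CPM (log2 fold change 6.52, adjusted p = 1.92e-05) and *Hspa1a* from 10.9 ± 3.08 to 484 ± 34.96 CPM (5.46, adjusted p = 1.87e-05). These 2 genes are near-identical copies between which reads can be split. *Hsph1* rose (1.64, adjusted p = 0.00344), *Hsp90aa1* rose (0.34, adjusted p = 0.0309, lost without *WT Phf6,RE9a* replicate 1 or any *VC Phf6,RE9a* library), and *Hspa8*, the most abundant, gave 0.33 (adjusted p = 0.158). *Dnajb1* gave -0.37 (adjusted p = 0.121), with every library of the deleted group under every control. For the other 6 heat shock genes every library of the deleted group lay above every control, as for 28.9% of all genes tested. Mitochondrial genes took 1.21% ± 0.192 of the counts in *WT Phf6,RE9a* libraries against 1.53% ± 0.0114 in *VC Phf6,RE9a* libraries. The time from sorting to lysis and the day of each preparation are not given in the labels, and a difference in handling between the groups cannot be told apart from the genotype.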

How the data were processed

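The authors deposited a table of whole-number read counts per gene, without normalization, and FPKM values computed from them. Their group means, fold changes and p-values in the same table were not used. The submitters' processing notes name Bowtie 0.12.0 and mm8 without a role. The deposited coordinates matched GRCm38 (GENCODE M21): of 54409 genes matched by identifier, 98.3% had the same start and end. The counting tool and strandedness are not given in the sources used here. Libraries were prepared with a TruSeq kit.

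Low-count genes were dropped by filterByExpr of edgeR 4.0.16 (R 4.3.3). All 6 libraries entered a single quasi-likelihood fit on TMM-scaled counts, with Benjamini-Hochberg adjustment over 14169 genes and a threshold of 0.05. Standard errors are the log2 fold change over the square root of the F statistic. CPM were TMM-scaled. With 3 libraries a group, the smallest exact permutation p is 0.1. The fit was tested on simulated data. Alternatives were DESeq2 1.42.0, RLE factors, omission of the count filter, a minimum of 10 counts per library, limma 3.58.1 on log2(FPKM + 1), each library left out, an adjusted p under 0.01 and a minimum of 2-fold. The members and lists were chosen with earlier results of these data known. In each list the rule names the 3 tested genes with the smallest p and the 3 with the highest mean CPM, and for *Fos* and *Jun* the 3 genes with the closest profile. Some genes that the rule names are not reported here. *Srf*, *Elk1*, *Myc*, *Dusp2*, *Nr4a3*, *Mmp3*, *Il2*, *Mmp9*, *Plaur*, *Ccnd1*, *Maf*, *Dnajb1*, *Mapk13*, *Map2k4*, *Map2k2*, *Mapk8ip3* and the marker genes outside this rule were named after their values were seen. *Mkl1* and *Mkl2* stand for *Mrtfa* and *Mrtfb*. Protein sequences were not used here. Promoters are from RefSeq (GRCm38.p6), and 3′ UTRs are the longest in GENCODE M21. Figures were drawn with matplotlib 3.10.9.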

Additional observations from a re-analysis of the deposited data

How the results depend on the processing

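*Fos*, *Fosb*, *Fosl2* and *Junb* stayed lower and past the threshold under all 11 alternatives that gave them a fold change, as *Batf* did, and *Jdp2* stayed higher, under the 10 in which they were tested. With each library left out, the log2 fold change lay between -2.04 and -1.62 for *Fos*, -1.84 and -1.38 for *Fosb*, -3.62 and -2.72 for *Fosl2*, -1.59 and -1.13 for *Junb*, -3.08 and -2.38 for *Batf* and 2.30 and 3.42 for *Jdp2*. It lay between -0.92 and -0.20 for *Jun*, which passed in none. *Jund* lay between -0.89 and -0.32 and passed without *WT Phf6,RE9a* replicate 3 only, and *Fosl1* lay between -1.14 and 0.046, with the sign turned without *VC Phf6,RE9a* replicate 13. A minimum of 10 counts in every library left 0 AP-1 genes higher, since *Jdp2* was then not tested. The cause of the other changes was not tested.

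An adjusted p under 0.01 left 1690 higher and 2110 lower genes, and 2 bZIP genes, 4 kinase cascade genes and 1 SRF partner were lower, while 1 kinase cascade gene, 2 targets and 1 immediate-early gene were higher. With a minimum of 2-fold, 1410 genes were higher and 1625 lower, with 2 bZIP genes, 1 kinase cascade gene, 0 SRF partners and 1 immediate-early gene higher, and 1 bZIP gene, 4 kinase cascade genes and 1 SRF partner lower. With each library left out, lower counts ran from 3 to 5 for bZIP genes, 5 to 11 for kinase cascade genes and 2 to 6 for SRF partners, and higher counts from 1 to 3 for kinase cascade genes, 2 to 3 for targets and 1 to 2 for immediate-early genes. Over all genes, the lower counts ran from 2511 to 3338 (3213 with every library) and the higher counts from 2179 to 3132 (3047 with every library).

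No paired analysis was possible because the groups share no replicate number. The standard errors of *Jun* and *Jund* (0.36 and 0.29) lay within the range of the genes that passed (0.23 for *Fos* to 0.58 for *Jdp2*). *Batf*, *Jdp2* and *Fosl1* rest on under 100 counts a library.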
